A study of Mus musculus with 9 samples.

Results

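The MHC class II presentation genes were examined in bone-marrow-derived dendritic cells (BMDCs), as 10 genes taken by symbol from a table of 57238 entries: the class II chains H2-Aa, H2-Ab1 and H2-Eb1, the invariant chain Cd74, the H2-DM genes H2-DMa, H2-DMb1 and H2-DMb2, the H2-O genes H2-Oa and H2-Ob, and the transactivator Ciita. All 10 were found and all 10 passed the filter on low counts, which left 15028 genes to test. The libraries came from BMDCs of wildtype C57BL/6 mice, which the labels describe as bone marrow cells cultured for 6 days in GM-CSF at 20 ng/ml. 3 libraries were from untreated cells (CTR), 3 from cells given exosomes of NIH-3T3, a mouse fibroblast line, for 24 h (normal cell-derived exosomes, NE), and 3 from cells given exosomes of tumor cells for 24 h (tumor-derived exosomes, TDE). The study's methods call the BMDCs purified before RNA extraction, and neither they nor the labels say how for these libraries. The labels do not name the tumor line and do not say whether the 3 libraries of a group came from separate animals or cultures. The p-values therefore measure the spread between these libraries, which may be technical.

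A class II molecule is a pair of chains, alpha and beta, that carries peptides from endosomes to the surface of dendritic cells, macrophages and B cells for CD4+ T cells to read. In the endoplasmic reticulum the pair is bound by the invariant chain, which blocks the peptide groove, directs the complex to endosomes and is there cut down to a fragment called CLIP. H2-DM then releases CLIP and edits the peptides bound, and H2-O restrains H2-DM. The transactivator CIITA switches on transcription of the chains, the invariant chain and H2-DM through proteins bound to the X and Y boxes of their promoters.

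8 of the 10 genes lie in the MHC on chromosome 17 (GRCm38, GENCODE vM21 positions, all 10 protein-coding). In order along the chromosome they are H2-Oa (ENSMUSG00000024334, chr17:34092340-34095234, plus strand), H2-DMa (ENSMUSG00000037649, chr17:34119541-34139101, plus), H2-DMb2 (ENSMUSG00000037548, chr17:34143307-34151555, plus) and H2-DMb1 (ENSMUSG00000079547, chr17:34153072-34160230, plus). H2-Ob (ENSMUSG00000041538, chr17:34238903-34254414, plus), H2-Ab1 (ENSMUSG00000073421, chr17:34257689-34269419, plus), H2-Aa (ENSMUSG00000036594, chr17:34282744-34287823, minus) and H2-Eb1 (ENSMUSG00000060586, chr17:34305867-34316674, plus) follow. Cd74 (ENSMUSG00000024610) lies outside the MHC, as does Ciita (ENSMUSG00000022504, chr16:10480059-10528418, plus strand).

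RefSeq promoter windows (GRCm38.p6, 250 bases before to 50 after each start) were matched for 7 of the 10 genes: H2-Aa, H2-Eb1, H2-DMa, H2-DMb1, H2-DMb2, H2-Oa and H2-Ob. The windows are shown because these genes are known for a shared pair of boxes. The capitals mark an X-box-like run, CNNNNAAC, and the Y box in its ATTGG orientation; each sequence is 5′ to 3′ on the gene's own strand.
H2-Aa, chr17:34287864-34287913, minus: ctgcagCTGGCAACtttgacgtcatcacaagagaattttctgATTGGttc
H2-Eb1, chr17:34305767-34305815, plus: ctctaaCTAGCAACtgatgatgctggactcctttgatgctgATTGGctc
H2-DMb1, chr17:34153088-34153137, plus: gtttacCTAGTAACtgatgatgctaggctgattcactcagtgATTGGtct
H2-DMb2, chr17:34145117-34145166, plus: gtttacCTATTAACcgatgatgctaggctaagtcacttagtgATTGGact
H2-Oa, chr17:34092294-34092343, plus: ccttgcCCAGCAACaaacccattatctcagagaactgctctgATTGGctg
H2-Ob, chr17:34238809-34238855, plus: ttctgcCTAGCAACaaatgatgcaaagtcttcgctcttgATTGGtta
The module CNNNNAAC followed after 24 to 32 bases by ATTGG was written down after these windows had been read, so its presence here is a description. On the gene's own strand it occurred in 0.569% of 32851 RefSeq windows, and in 1.23% on either strand. The spacing between the runs was 28 bases in H2-Aa, H2-DMb1, H2-DMb2 and H2-Oa, 27 in H2-Eb1 and 25 in H2-Ob. A stricter X box core, AGCAACNGA, was found in H2-Eb1 alone of these genes and in 1.34% of all windows, and CCAAT on either strand, the Y box by itself, in 37.4%. Both H2-DMa windows lacked the module. H2-Oa and H2-Ob carried the module, as H2-Aa and H2-Eb1 did. A link between the module and the levels of these genes was not tested.

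The libraries held 17469782 to 21092943 estimated reads. Levels are given as CPM, the reads of a gene per 1000000 reads of a library size scaled by TMM, and 3 reads, the floor used here, corresponded to 0.135 to 0.190 CPM. CTR replicate 1 stood apart from the rest. Its TMM factor was 0.751 against 0.999 to 1.07 in the other 8, and relative to CTR replicates 2 and 3 its genes differed by length: the median difference in log2 CPM was 1.50 for 1642 genes under 1 kb, 0.67 for 3631 genes of 1 to 2 kb, −0.15 for 5903 genes of 2 to 4 kb and −0.78 for 3852 genes of 4 kb and over. 9 of the 10 class II genes have a length in the table of 1088 to 1651 bases, and Ciita has 4237. NE replicate 3 showed a smaller slope of the same sign, from 0.41 in the shortest to −0.27 in the longest class. Counts of member calls and most of the members' fold changes are therefore given with and without CTR replicate 1, and also with offsets fitted to gene length in each library. For the other gene lists these further fits are given in part.

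**Figure D1:**
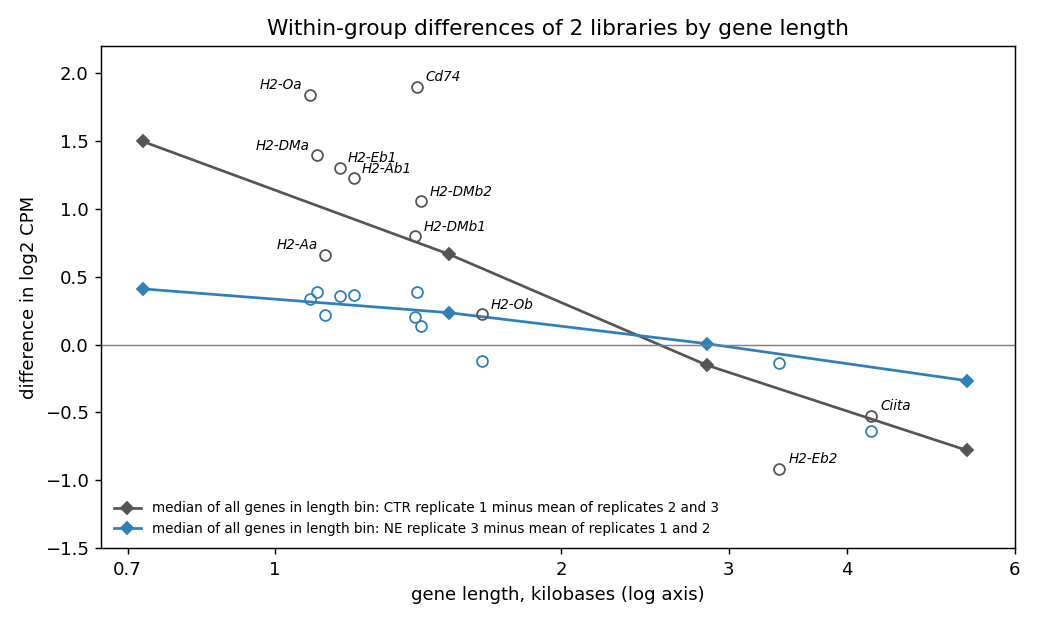
Difference in log2 CPM (vertical axis) against gene length in kilobases (log axis), for CTR replicate 1 against CTR replicates 2 and 3 (grey) and NE replicate 3 against NE replicates 1 and 2 (blue); diamonds joined by lines are medians of all tested genes in 4 length classes, placed at the class's median length, and open circles are the 10 class II genes and H2-Eb2. In grey, Cd74 at 1.90 and H2-Oa at 1.84 lie highest, and Ciita at −0.52 lies near the median of long genes.

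Against the labelled cell type, of 8 conventional dendritic cell markers Itgax was at 107 to 178 CPM, Flt3 at 11.6 to 16.0, Zbtb46 at 13.7 to 19.9 and Clec9a at 4.22 to 7.32, while Cd209a was at 0 to 0.163 and Xcr1 at 0.218 to 0.966. Macrophage markers were also abundant, among them Csf1r at 1371 to 2116 CPM. GM-CSF cultures of bone marrow are known to hold both cell types. In such bulk samples fewer cells of a type and less RNA per cell cannot be told apart.

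The 10 genes together took 1.06%, 0.591% and 0.480% of all estimated reads in the CTR libraries, 0.450%, 0.467% and 0.563% in the NE libraries, and 0.244%, 0.264% and 0.251% in the TDE libraries. Every TDE library thus gave a smaller share of its reads to class II genes than every CTR or NE library. Per kilobase of gene, the only scale on which different genes are compared here, Cd74 was highest in every group. Its level was 3160 ± 2600 CPM per kilobase in CTR, 1570 ± 254 in NE and 615 ± 16.7 in TDE (SD, n = 3). H2-Aa, H2-Eb1 and H2-Ab1 came next in every group, at 344 to 970 CPM per kilobase on average, and neighbours in that order overlapped except for H2-Eb1 and H2-Ab1 in TDE. H2-DMa and H2-DMb1 followed at 64.9 to 177 CPM per kilobase. The remaining 4 genes were the lowest, at 4.19 to 16.1, and their order differed between groups. H2-Ob was last of the 10 in CTR (5.17 ± 0.553 CPM per kilobase) and in NE (4.19 ± 0.332). In TDE it was seventh in the order at 11.8 ± 0.511, above H2-Oa, H2-DMb2 and Ciita, whose ranges it did not overlap.

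**Figure D2:**
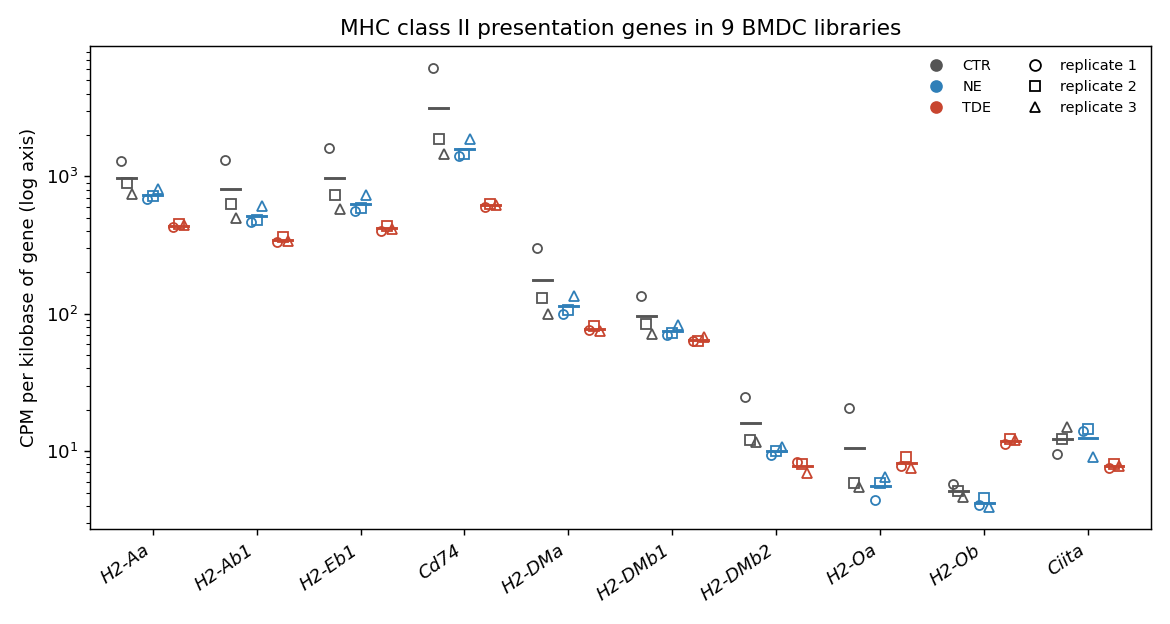
Level of each class II gene in CPM per kilobase of gene (vertical, log axis), with 1 symbol per library, shaped by replicate and coloured by group (CTR grey, NE blue, TDE red); short lines are group means. TDE symbols lie below all CTR and NE symbols for 8 genes, above them for H2-Ob, and above NE alone for H2-Oa.

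The comparison of TDE with CTR asks how tumor exosomes changed these transcripts in BMDCs. The 3 chains and Cd74 fell, with Cd74 at 5.14-fold and H2-Aa, H2-Ab1 and H2-Eb1 at 2.21- to 2.35-fold lower, H2-DMb2 fell 2.06-fold, and H2-Ob rose 2.29-fold. edgeR's quasi-likelihood test with Benjamini-Hochberg adjustment over all genes called 5 members lower and 1 higher. Of all genes tested, 9.34% were called lower and 7.57% higher. Without CTR replicate 1 it called 7 lower and 2 higher, beside 18.0% and 16.4% of all genes. With offsets fitted to gene length it called 7 lower and 1 higher, beside 13.5% and 11.4%. The TDE libraries lay below all CTR libraries for 8 members and above them for H2-Ob, and only H2-Oa overlapped; 21.8% of all genes lay wholly lower and 22.2% wholly higher. The median log2 fold change of the 10 members was −1.10, and −0.63 without CTR replicate 1, beside −0.05 and −0.02 for all genes tested.

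Setting TDE beside NE asks the same of tumor exosomes relative to exosomes from a non-tumor line. H2-Ob rose 2.82-fold and H2-Aa fell 1.68-fold. No other member was called with all 9 libraries in the fit, which gives 1 lower and 1 higher, where 7.21% of all genes were called lower and 6.73% higher. CTR libraries entered this comparison through the shared fit. With CTR replicate 1 left out the members' log2 fold changes moved by 0.0069 to 0.009 and 9 of 10 members were called, 7 lower and 2 higher, beside 21.5% and 19.2% of all genes. With offsets fitted to gene length 6 were lower and 1 higher, beside 10.5% and 10.6%. No member's TDE libraries overlapped its NE libraries: 8 were wholly lower and 2 wholly higher, against 27.7% and 26.8% of all genes. The members' median log2 fold change was −0.57, and that of all genes −0.02. Both comparisons use the same TDE libraries.

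**Figure D3:**
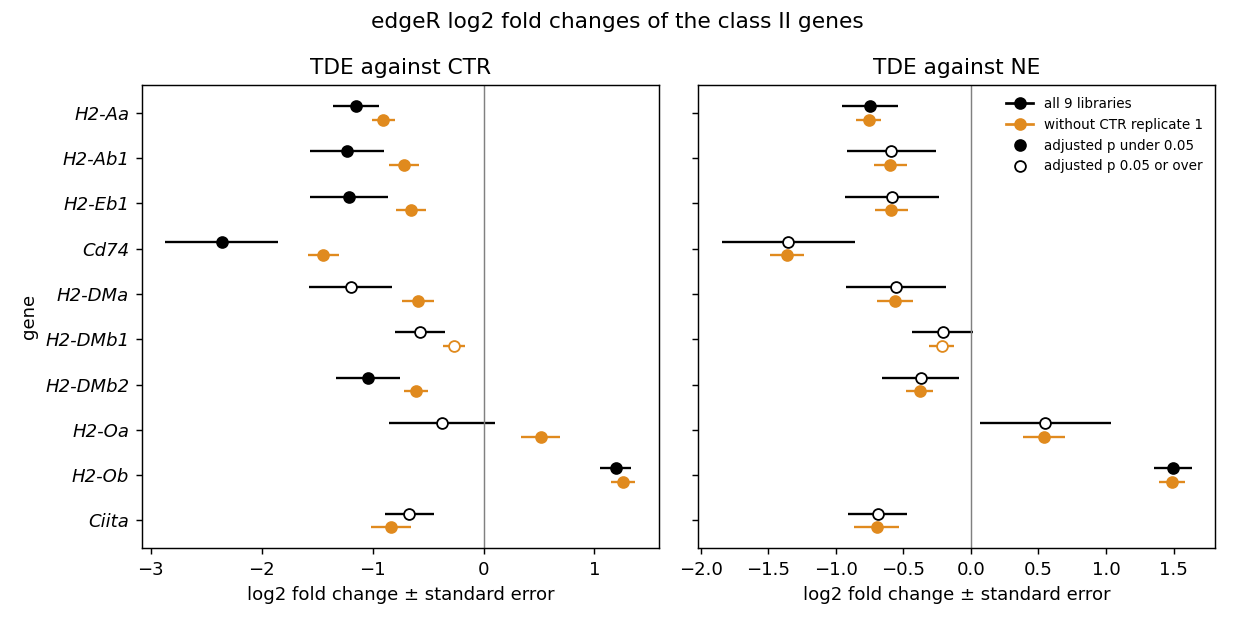
log2 fold change with its standard error (horizontal axes) of each class II gene for TDE against CTR (left) and TDE against NE (right), fitted with all 9 libraries (black) and without CTR replicate 1 (orange); filled symbols have an adjusted p under 0.05 in edgeR. In both panels H2-Ob lies right of 0 in both fits, H2-Oa changes side between fits on the left only, and the other 8 genes lie left of 0.

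The NE libraries were set against CTR to ask what exosomes from a non-tumor line did. edgeR called 0.0% of all genes and 0 of the 10 members, of which 1, H2-DMb2, had an unadjusted p under 0.05 (0.0442). Over all genes 487 had an unadjusted p under 0.05, DESeq2 called 3 and limma-voom with quality weights 18. The members' median log2 fold change of −0.64 became −0.10 without CTR replicate 1, when all 10 lay between −0.23 and −0.02. Only H2-DMb2 and H2-Ob had NE libraries wholly below CTR, in a table where 3.68% of all genes did. H2-DMb2 was at 13.3 to 15.3 CPM in NE and 16.5 to 35.1 in CTR, and H2-Ob at 6.51 to 7.54 and 7.62 to 9.44.

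H2-Aa encodes the alpha chain of I-A, the main class II molecule of this strain. Its libraries stood at 1447, 1000 and 836 CPM in CTR, 768, 808 and 916 in NE and 479, 505 and 499 in TDE. The TDE values lay close together and below every other library. Against CTR the log2 fold change was −1.15 ± 0.21 (SE, edgeR adjusted p = 0.0083), and −0.90 ± 0.10 without CTR replicate 1 (adjusted p = 0.00018). Against NE it was −0.75 ± 0.21 (adjusted p = 0.0465). The call against CTR was made in all 20 alternative fits, with adjusted p up to 0.0473. Against NE it was made in 10 of 20 and was lost without CTR replicate 2 (0.0680), any single NE library (0.102 to 0.154) or any single TDE library (0.142 to 0.167).

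H2-Ab1 encodes the beta chain that pairs with H2-Aa. Its levels were 1583, 759.6 and 603 CPM in CTR, 563, 584 and 738 in NE and 406, 437 and 409.8 in TDE, so that CTR replicate 1 was far above the rest and TDE below all. The log2 fold change against CTR was −1.23 ± 0.34 (edgeR adjusted p = 0.0396), and −0.72 ± 0.13 without CTR replicate 1 (adjusted p = 0.0032). Against NE it was −0.59 ± 0.33 (adjusted p = 0.319), and −0.60 ± 0.12 with CTR replicate 1 out of the fit (adjusted p = 0.0040).

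H2-Eb1, a beta chain of the I-E type, ran closely parallel to H2-Ab1, with r = 0.999 between their log2 CPM over the 9 libraries, which share the deviation of CTR replicate 1. It was at 1874, 857 and 672 CPM in CTR, 654, 684 and 856 in NE and 471, 512 and 483 in TDE. TDE was again below all the others. Against CTR the log2 fold change was −1.22 ± 0.35 (edgeR adjusted p = 0.0487), or −0.66 ± 0.13 without CTR replicate 1 (adjusted p = 0.0052). Against NE it was −0.58 ± 0.35 (adjusted p = 0.356), or −0.59 ± 0.12 in that smaller fit (adjusted p = 0.0044). In C57BL/6 mice the partner gene of the I-E alpha chain is a pseudogene, and H2-Ea-ps was at or near 0 in every library, with at most 0.209 CPM, and did not pass the filter.

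Cd74, the invariant chain, showed the largest fall of the 10. It was at 8675, 2632 and 2057 CPM in CTR, 1978, 2038 and 2626 in NE, and 843, 890.3 and 867 in TDE. CTR replicate 1 was far above any other library, and the TDE libraries were below all CTR and NE libraries. The log2 fold change against CTR was −2.36 ± 0.51 (edgeR adjusted p = 0.0165). Without CTR replicate 1 it was −1.45 ± 0.14, a 2.72-fold difference (adjusted p = 7.5e-05). Against NE it was −1.35 ± 0.49 (adjusted p = 0.115), and −1.36 ± 0.13 with CTR replicate 1 out of the fit (adjusted p = 4.8e-05).

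The calls against CTR depended on which library was left out. 9 members were called without CTR replicate 1 and 8 without CTR replicate 3, against 6 with all 9 libraries, and 2 to 5 when any other library was left out. H2-Ab1 had an adjusted p of 0.0143 without CTR replicate 3, 0.0609 to 0.0701 without 1 NE library and 0.120 to 0.135 without 1 TDE library. H2-Eb1 had 0.0167 without CTR replicate 3, 0.0546 without CTR replicate 2, 0.0732 to 0.0828 without 1 NE library and 0.137 to 0.156 without 1 TDE library. Cd74 kept its call without any CTR or NE library and had 0.0698 to 0.0747 without 1 TDE library. All of these genes kept a negative log2 fold change in all 20 alternative fits. With offsets fitted to gene length the log2 fold changes against CTR were −0.74 ± 0.12 for H2-Aa, −0.77 ± 0.11 for H2-Ab1, −0.72 ± 0.11 for H2-Eb1 and −1.90 ± 0.30 for Cd74 (edgeR adjusted p = 0.0016 to 0.0029). Against NE they were −0.70 ± 0.12, −0.54 ± 0.11, −0.53 ± 0.11 and −1.31 ± 0.30 in the same order (adjusted p = 0.0035 to 0.0147).

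Ratios between genes within a library do not depend on its scaling. Cd74 stood at 1.77, 1.01 and 0.974 reads per read of the 3 chains summed in CTR, 0.997, 0.982 and 1.05 in NE, and 0.622, 0.613 and 0.623 in TDE. The 8 values outside CTR replicate 1 thus fell into a band near 1 for CTR and NE and a lower, narrow band for TDE. The mean log2 ratio was lower in TDE than in CTR by a log2 difference of −0.96, or −0.68 without CTR replicate 1, and than in NE by −0.70. An exact two-sided permutation test gave p = 0.1 for each of those with 3 libraries per group, which is the smallest p that 3 against 3 allows, and 0.21 after Benjamini-Hochberg adjustment over the 21 ratio tests. H2-Ab1 to H2-Aa and H2-Eb1 to H2-Aa overlapped between TDE and CTR and were slightly higher in TDE than in NE, with log2 differences of 0.17 and 0.17 (exact permutation p = 0.1, adjusted 0.21).

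The H2-DM genes encode the peptide editor, whose alpha chain comes from H2-DMa and whose beta chain comes from H2-DMb1 or H2-DMb2. H2-DMa was at 334, 145 and 111 CPM in CTR, 111, 118 and 149 in NE and 84.2, 90.5 and 82.4 in TDE. The TDE libraries lay below the others, but the spread of CTR was wide. The log2 fold change was −1.20 ± 0.37 against CTR (edgeR adjusted p = 0.0613), −0.59 ± 0.15 without CTR replicate 1 (adjusted p = 0.0133), and −0.56 ± 0.37 against NE (adjusted p = 0.414). It was called against NE with CTR replicate 1 out of the fit (adjusted p = 0.0086), and against CTR without CTR replicate 3 (adjusted p = 0.0195). H2-DMa shares exon sequence with Brd2 on the opposite strand, at 135 to 277 CPM.

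H2-DMb1 differed least of the genes that were wholly lower in TDE. Its levels were 189, 118 and 99.5 CPM in CTR, 99.0, 102 and 115 in NE and 89.0, 89.0 and 95.3 in TDE. The nearest NE and TDE libraries were close to each other. The log2 fold changes were −0.57 ± 0.23 against CTR (edgeR adjusted p = 0.116) and −0.21 ± 0.23 against NE (adjusted p = 0.658), and without CTR replicate 1 the adjusted p were 0.0705 and 0.0827. It was the only member called in neither comparison without CTR replicate 1, though it was called against CTR without CTR replicate 3 (adjusted p = 0.0375).

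H2-DMb2 was at 35.1, 17.1 and 16.5 CPM in CTR, 13.3, 14.4 and 15.3 in NE and 11.9, 11.5 and 9.81 in TDE. It fell against CTR with a log2 fold change of −1.04 ± 0.29 (edgeR adjusted p = 0.0411), or −0.61 ± 0.11 without CTR replicate 1 (adjusted p = 0.0026). The call was lost without 1 NE library (0.0670 to 0.0724) or 1 TDE library (0.116 to 0.148). Against NE the log2 fold change was −0.37 ± 0.29 (adjusted p = 0.496), and −0.38 ± 0.10 with CTR replicate 1 out of the fit (adjusted p = 0.0150). With offsets fitted to gene length the log2 fold changes against CTR were −0.66 ± 0.12 for H2-DMa, −0.25 ± 0.08 for H2-DMb1 and −0.70 ± 0.13 for H2-DMb2 (adjusted p = 0.0055, 0.0655 and 0.0068), and against NE −0.50 ± 0.12, −0.17 ± 0.08 and −0.34 ± 0.13 (adjusted p = 0.0187, 0.199 and 0.116). The H2-DMb1 and H2-DMb2 transcripts agree at 87.7% of 1144 aligned positions, and 361 of the 1355 words of 50 bases in H2-DMb1 (26.6%) also occur in H2-DMb2, so the division of reads between them is uncertain. Taken as a sum, the 2 beta genes stood at 0.670, 0.932 and 1.04 reads per H2-DMa read in CTR, 1.02, 0.986 and 0.874 in NE and 1.20, 1.11 and 1.27 in TDE. That ratio was higher in every TDE library than in any other, by a log2 difference of 0.46 from CTR, 0.28 without CTR replicate 1, and 0.32 from NE (exact permutation p = 0.1 for the comparisons of 3 with 3, adjusted 0.21).

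H2-Ob encodes the beta chain of H2-O, the inhibitor of H2-DM that is known chiefly from B cells and some dendritic cells. It was at 9.44, 8.53 and 7.62 CPM in CTR, 6.69, 7.54 and 6.51 in NE and 18.6, 20.2 and 19.7 in TDE. Each TDE library was well above each other library, and CTR replicate 1 was close to its group. The log2 fold change was 1.19 ± 0.14 against CTR (edgeR adjusted p = 0.0012), 1.26 ± 0.11 without CTR replicate 1 (adjusted p = 4.4e-05) and 1.50 ± 0.14 against NE (adjusted p = 0.00040). With offsets fitted to gene length it was 1.38 ± 0.14 and 1.52 ± 0.14 (adjusted p = 0.00030 and 0.00018). The rise was called in all 20 alternative fits of either comparison, with log2 fold changes of 1.12 to 1.38 against CTR and 1.44 to 1.56 against NE.

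H2-Oa encodes the alpha chain of H2-O. Its levels were 22.3, 6.37 and 5.94 CPM in CTR, 4.77, 6.40 and 7.01 in NE and 8.53, 9.93 and 8.15 in TDE. TDE was above all NE libraries and above CTR replicates 2 and 3, but below CTR replicate 1. The direction against CTR turned on that library: the log2 fold change was −0.37 ± 0.48 with it (edgeR adjusted p = 0.591) and 0.52 ± 0.17 without it (adjusted p = 0.0482), and 0.24 with offsets fitted to gene length (adjusted p = 0.458). Against NE it was 0.55 ± 0.48 (adjusted p = 0.568), 0.54 ± 0.16 with CTR replicate 1 out of the fit (adjusted p = 0.0223) and 0.60 ± 0.23 with offsets fitted to gene length (adjusted p = 0.107). H2-Oa shares exon sequence with BC051537 on the opposite strand, which was at 0 to 0.495 CPM. The counting setting for strand is not stated, so reads of the pair cannot be told apart.

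Set against H2-DM, the H2-O reads of a library (H2-Oa plus H2-Ob) came to 5.70%, 5.33% and 5.97% of the reads of the 3 H2-DM genes in CTR, 5.14%, 5.95% and 4.83% in NE, and 14.6%, 15.8% and 14.9% in TDE. CTR replicate 1 was within the range of its group on this measure. The log2 difference was 1.41 between TDE and CTR, 1.42 without CTR replicate 1, and 1.51 between TDE and NE, against SDs of 0.06 to 0.15 within groups. The exact permutation p was 0.1 for both comparisons of 3 with 3, adjusted 0.21 over 21 tests. NE and CTR overlapped, with a log2 difference of −0.10 (exact permutation p = 0.4, adjusted 0.7).

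**Figure D4:**
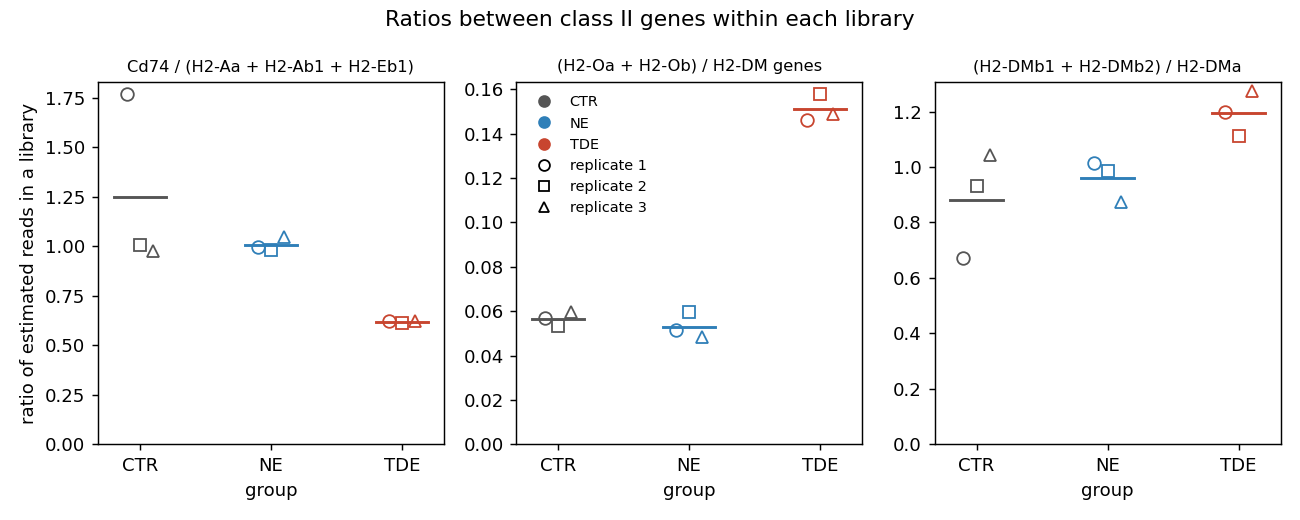
Ratio of estimated reads within each library (vertical axes, from 0) of Cd74 to the 3 chains (left), of the H2-O genes to the H2-DM genes (middle) and of the H2-DM beta genes to H2-DMa (right), with 1 symbol per library, shaped by replicate, and a line at the group mean. The 3 TDE libraries sit apart from all CTR and NE libraries in each panel, and CTR replicate 1 is the outlying CTR library on the left and on the right.

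Ciita encodes the master transactivator of class II genes. It was at 40.2, 52.3 and 64.0 CPM in CTR, 59.3, 61.1 and 38.7 in NE and 31.7, 34.0 and 32.8 in TDE. TDE lay below all others, and CTR replicate 1 was the lowest of its group, opposite to the chains. The log2 fold change was −0.67 ± 0.22 against CTR (edgeR adjusted p = 0.0735) and −0.69 ± 0.22 against NE (adjusted p = 0.0773). Without CTR replicate 1 it was −0.83 ± 0.18 (adjusted p = 0.0071) and −0.70 ± 0.17 (adjusted p = 0.0090), and with offsets fitted to gene length −0.83 ± 0.14 (adjusted p = 0.0043) and −0.68 ± 0.14 (adjusted p = 0.0105). Without NE replicate 3 the adjusted p were 0.0488 and 0.0392. The reads of Ciita per read of the 3 chains overlapped between TDE and both other groups, at 2.34%, 2.34% and 2.36% in TDE, 0.821% to 3.03% in CTR and 1.54% to 2.99% in NE. Exons of Ciita and Dexi overlap on opposite strands, and Dexi was at 6.48 to 23.1 CPM.

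A list of 33 other genes of the pathway, of which 32 were tested, was counted beside the members. Against CTR, 5 were called lower (Nfyc, Ctsl, Ctsb, Cd83 and H2-Eb2) and 3 higher (Ifngr2, March1 and Il10), and against NE 3 were lower (Ctsl, Ctsb and H2-Eb2) and 2 higher (Ifngr2 and Il10). Over all genes 9.34% were called lower and 7.57% higher against CTR, and 7.21% and 6.73% against NE. None was called for NE against CTR, with edgeR or in any of the 20 alternatives, DESeq2 among them, and 0 had an unadjusted p under 0.05 in edgeR. Without CTR replicate 1, 9 were lower and 8 higher against CTR, beside 18.0% and 16.4% of all genes, and 11 lower and 8 higher against NE, beside 21.5% and 19.2%. The list's median log2 fold change was −0.06 against CTR and −0.04 against NE, close to those of all genes.

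H2-Eb2, a further beta-chain gene next to H2-Eb1, was at 14.1, 27.9 and 25.4 CPM in CTR, 23.2, 25.1 and 22.0 in NE and 5.60, 6.77 and 7.31 in TDE. Its fall was proportionally larger than that of any chain, with no overlap: the log2 fold change was −1.78 ± 0.26 against CTR (edgeR adjusted p = 0.0032) and −1.83 ± 0.26 against NE (adjusted p = 0.0026), and it was called in all 20 alternative fits of both. The value against CTR was −2.03 ± 0.12 without CTR replicate 1 (adjusted p = 6.1e-06) and −1.83 ± 0.19 with offsets fitted to gene length (adjusted p = 0.00039). CTR replicate 1 was its lowest CTR library, opposite to H2-Eb1. The H2-Eb2 window holds the same kind of module as those printed above, with 27 bases between its runs, and the AGCAACNGA core.

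Of 18 regulators, 1 was lower (Nfyc) and 1 higher (Ifngr2) against CTR, where 9.34% of all genes were called lower and 7.57% higher, so these counts do not set the regulators apart. Without CTR replicate 1, 2 were lower and 4 higher, beside 18.0% and 16.4% of all genes. With offsets fitted to gene length 1 was lower and 3 higher, beside 13.5% and 11.4%. Nfyc, a subunit of the factor that binds the Y box, was at 23.2 to 42.8 CPM in CTR, 25.4 to 26.8 in NE and 16.7 to 17.2 in TDE, with a log2 fold change of −0.88 ± 0.21 against CTR (edgeR adjusted p = 0.0255) and −0.62 ± 0.21 against NE (adjusted p = 0.0940). Its call against CTR was lost without NE replicate 1 (0.0504), NE replicate 2 (0.0502) or 1 TDE library (0.0939 to 0.0960), and it was called against NE without CTR replicate 1 (0.00053) or 3 (0.0447) and with offsets fitted to gene length (0.0142). The value against CTR was −0.61 ± 0.10 without CTR replicate 1 (adjusted p = 0.0014). Ifngr2, the second chain of the receptor for interferon gamma, the cytokine that induces Ciita in many cells, was at 129 to 165 CPM in CTR, 145 to 163 in NE and 215 to 216 in TDE. Its log2 fold change was 0.53 ± 0.13 against CTR (adjusted p = 0.0278) and 0.48 ± 0.13 against NE (adjusted p = 0.0425), and against CTR 0.43 ± 0.08 without CTR replicate 1 (adjusted p = 0.0024). The first call was lost without NE replicate 1 (0.0609), NE replicate 2 (0.0574) or 1 TDE library (0.101 to 0.108), and the second without CTR replicate 2 (0.0571), CTR replicate 3 (0.0568), 1 NE library (0.0782 to 0.172) or 1 TDE library (0.144 to 0.152).

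The other regulators named here did not pass the test against CTR. Rfx5, the X-box binding subunit, was at 12.0 to 25.9 CPM in CTR, 22.9 to 27.2 in NE and 28.2 to 33.0 in TDE. Its TDE libraries lay above every CTR and NE library (log2 fold change against CTR 0.55, edgeR adjusted p = 0.178). CTR replicate 1 was its lowest library, and without it the log2 fold change was 0.26 ± 0.11 (adjusted p = 0.0853). Spi1, which encodes PU.1, was at 287 to 548 CPM in CTR and 332 to 350.3 in TDE (adjusted p = 0.583). Irf4 and Irf8, factors of dendritic cell development, had TDE libraries above all others, at 39.1 to 42.2 and 335 to 364 CPM against 18.1 to 32.6 and 270.4 to 293 in CTR (adjusted p = 0.116 and 0.116). With that first CTR library left out they had adjusted p of 0.0342 and 0.0112. Irf1, of the interferon response, was at 86.8 to 102 CPM in CTR and 99.6 to 103 in TDE, which overlapped (adjusted p = 0.499). Prdm1, which encodes Blimp-1, a repressor of Ciita, was at 11.9 to 31.9 CPM in CTR and 22.1 to 26.2 in TDE (adjusted p = 0.994). CTR replicate 1 was its lowest CTR library. Without that library the log2 fold change of Prdm1 was −0.34 ± 0.15 against CTR (edgeR adjusted p = 0.116) and −0.44 ± 0.14 against NE (adjusted p = 0.0305).

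Of 9 endosomal enzymes and their partners, 2, Ctsl and Ctsb, were called lower in both comparisons and 0 higher. Of all genes 9.34% were called lower against CTR and 7.21% against NE. The TDE libraries lay wholly below CTR for 6 of the 9 and wholly above for 1, beside 21.8% and 22.2% of all genes. Without CTR replicate 1, 4 were called lower and 2 higher against CTR, beside 18.0% and 16.4%. Against NE that fit called 5 lower and 2 higher, beside 21.5% and 19.2%. Ctsl encodes cathepsin L, a protease that cuts the invariant chain in some cells. It was at 912 to 1285 CPM in CTR, 1046 to 1249 in NE and 536 to 540.5 in TDE, and its log2 fold change was −1.03 ± 0.16 against CTR (edgeR adjusted p = 0.0048) and −1.05 ± 0.16 against NE (adjusted p = 0.0042). Ctsb, which encodes cathepsin B, was at 3582 to 5041 CPM in CTR, 3840 to 4064 in NE and 1753 to 1823 in TDE (log2 fold change −1.21 ± 0.16, adjusted p = 0.0023, and −1.13 ± 0.16, adjusted p = 0.0030). Both were called in all 20 alternative fits of both comparisons. Against CTR the log2 fold changes of Ctsl and Ctsb were −0.92 ± 0.11 and −1.06 ± 0.07 without CTR replicate 1 (adjusted p = 0.00022 and 9.1e-06), and −1.48 ± 0.34 and −1.51 ± 0.28 with offsets fitted to gene length (adjusted p = 0.0147 and 0.0056).

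Ctss, cathepsin S, the main protease of the last cut of the invariant chain in dendritic cells, gave no call with all 9 libraries, without CTR replicate 1 or with offsets fitted to gene length. It was at 2700 to 3763 CPM in CTR, 3468 to 4564 in NE and 3373 to 3460 in TDE, with a log2 fold change of 0.06 ± 0.18 against CTR (edgeR adjusted p = 0.819). Lgmn, an asparaginyl endopeptidase, was at 389 to 617 CPM in CTR and 347 to 372 in TDE (adjusted p = 0.131). With CTR replicate 1 out of the fit it had an adjusted p of 0.0898 against CTR and 0.0123 against NE, where its log2 fold change was −0.36 ± 0.09. Ifi30, the thiol reductase GILT, was at 175 to 524 CPM in CTR and 235 to 247 in TDE. Its direction against CTR turned on CTR replicate 1: the log2 fold change was −0.31 ± 0.38 with that library (edgeR adjusted p = 0.577), 0.36 ± 0.11 without it (adjusted p = 0.0320) and 0.31 ± 0.10 with offsets fitted to gene length (adjusted p = 0.0602). The value against NE was 0.35 ± 0.38 (adjusted p = 0.662), and 0.34 ± 0.10 with CTR replicate 1 out of the fit (adjusted p = 0.0209). Cst3, an inhibitor of cathepsins, was at 900.4 to 3688 CPM in CTR and 771 to 808 in TDE, and its log2 fold change was −1.28 ± 0.48 (adjusted p = 0.104). CTR replicate 1 carried most of that size: the log2 fold change was −0.40 ± 0.16 when it was left out (adjusted p = 0.0867) and −0.52 ± 0.14 with offsets fitted to gene length (adjusted p = 0.0305), and the adjusted p was 0.0323 without CTR replicate 3.

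Of 4 genes of surface turnover, 1 was called lower and 2 higher against CTR, beside 9.34% and 7.57% of all genes. Without CTR replicate 1, 2 were lower and 2 higher, beside 18.0% and 16.4%. March1 and Cd83 act on the same step in opposite ways. March1 encodes the ubiquitin ligase that sends surface class II to degradation, and CD83 is known to oppose it. March1 was at 49.3, 105 and 132 CPM in CTR, 129, 137 and 113 in NE and 254, 241 and 251 in TDE, with every TDE library above every other. Its log2 fold change was 1.38 ± 0.31 against CTR (edgeR adjusted p = 0.0202), 1.06 ± 0.12 without CTR replicate 1 (adjusted p = 0.00018) and 0.98 ± 0.31 against NE (adjusted p = 0.0741). Cd83 was at 331, 158 and 143 CPM in CTR, 133, 145 and 152 in NE and 98.6, 107 and 94.6 in TDE, all TDE libraries lowest. Its log2 fold change was −1.07 ± 0.30 against CTR (adjusted p = 0.0436), −0.60 ± 0.09 without CTR replicate 1 (adjusted p = 0.0010) and −0.52 ± 0.30 against NE (adjusted p = 0.331). The call of March1 against CTR was lost without 1 TDE library (0.0643 to 0.0717) and one against NE was made without CTR replicate 1 (0.00010) or 3 (0.0461). That of Cd83 against CTR was lost without 1 NE library (0.0707 to 0.0762) or 1 TDE library (0.120 to 0.148), and it was called against NE without CTR replicate 1 (0.00094). March8 was at 20.3 to 58.5 CPM in CTR, 53.6 to 63.7 in NE and 43.0 to 45.7 in TDE. Its log2 fold change was 0.001 ± 0.33 against CTR (edgeR adjusted p = 0.998) and −0.43 ± 0.33 against NE (adjusted p = 0.500). Without CTR replicate 1 March8 was called lower in both, at −0.35 ± 0.10 (adjusted p = 0.0197) and −0.44 ± 0.09 (adjusted p = 0.0034).

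Il10 encodes the cytokine IL-10, which is known to raise March1 and to lower surface class II in myeloid cells. It had 0, 0 and 3 reads in CTR, 0, 2 and 3 in NE and 42, 37 and 53 in TDE. The CTR and NE libraries were at or under the floor of 3 reads, so no fold is given, and the rise had an edgeR adjusted p of 0.0066 against CTR and 0.0091 against NE. Without NE replicate 2 the latter was 0.0531. The TDE level of 2.02 to 2.77 CPM was itself low.

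**Figure D5:**
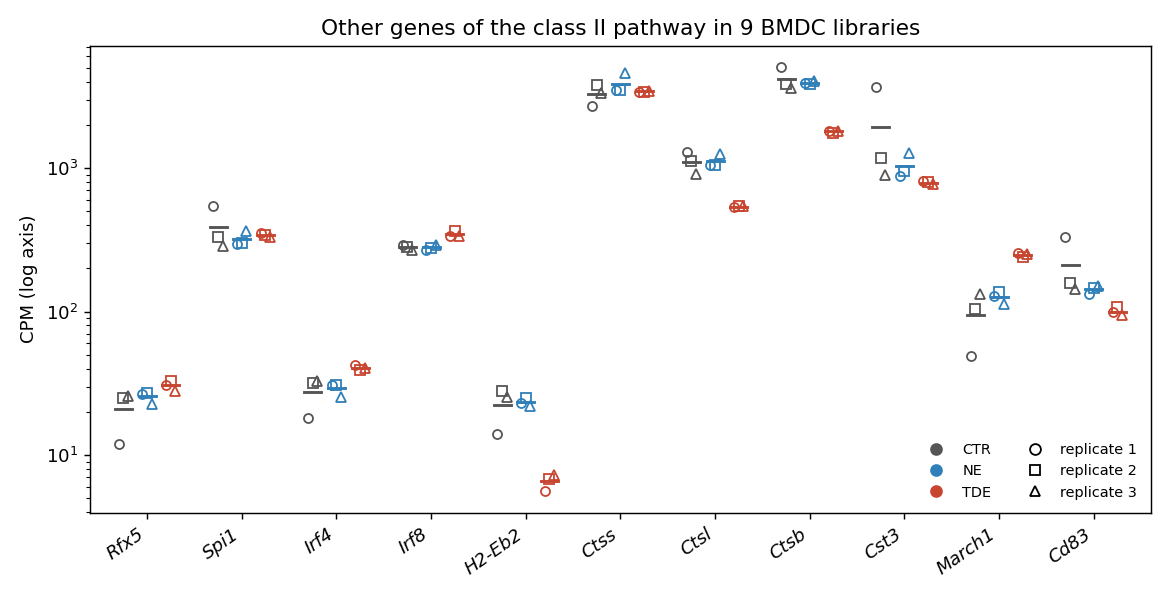
Level in CPM (vertical, log axis) of 11 other genes of the class II pathway, grouped as regulators, H2-Eb2, endosomal enzymes with their inhibitor Cst3, and the surface-turnover genes March1 and Cd83, with 1 symbol per library, shaped by replicate and coloured by group, and lines at group means. H2-Eb2, Ctsl and Ctsb are lower and March1 is higher in every TDE library than in every CTR and NE library.

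Markers of other cell types moved with the TDE group as well. The summed level of 8 neutrophil markers was 6943 to 27993 CPM in CTR, 7323 to 10573 in NE and 3020 to 3311 in TDE, with 7 of 8 called lower against CTR. The 4 eosinophil markers summed to 409 to 1326, 431 to 492 and 96.5 to 120.3 CPM, all 4 lower. Of all genes tested, 9.34% were called lower against CTR. CTR replicate 1 gave the upper CTR value of both sums. Without it every neutrophil and eosinophil marker was called lower against CTR (edgeR adjusted p of 0.0064 or less), beside 18.0% of all genes. Among the 8 conventional dendritic cell markers, Ccr7 and then Itgax had the highest CPM in every library and made up most of the sum. The 8 markers summed to 563 to 945, 549.6 to 582 and 333 to 351 CPM. 2 of their 7 tested members were called lower against CTR, namely Ccr7, the lymph-node homing receptor, at 339 to 761 CPM in CTR and 178 to 199.7 in TDE, and Dpp4 at 13.4 to 24.7 and 7.48 to 8.88. Zbtb46 and Flt3, which mark the lineage, had adjusted p of 0.147 and 0.934 against CTR in edgeR. Itgax was called lower against NE (adjusted p = 0.0327). Without CTR replicate 1, Zbtb46, Itgax and Clec9a were called lower against CTR too (adjusted p = 0.0092, 0.0075 and 0.0082). Flt3 and Xcr1 were not called in that fit (adjusted p = 0.388 and 0.689).

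The 8 macrophage markers summed to 3850 to 4502 CPM in CTR, 3699 to 4035 in NE and 5265 to 5635 in TDE. Against CTR 1 was called higher and 2 lower, beside 7.57% and 9.34% of all genes. The higher one was Adgre1, which encodes F4/80, at 206 to 480.0 CPM in CTR and 2114 to 2312 in TDE. Without CTR replicate 1, Fcgr1 was called higher too, and Mertk and C1qa lower (edgeR adjusted p = 0.0013, 0.0096 and 0.0042). B cells, which express H2-O, were represented by 6 markers that summed to 34.9 to 75.2 CPM in CTR, 31.0 to 37.0 in NE and 32.3 to 32.7 in TDE. Among them Cd79a, at 7.37 to 18.4 CPM in CTR and 3.66 to 4.71 in TDE, and Ms4a1, at 6.89 to 7.47 and 2.87 to 3.71, were called lower against CTR, and none of the 6 was called higher. Cd79b was at 8.32 to 34.6 CPM in CTR, 7.32 to 9.10 in NE and 15.7 to 16.9 in TDE, and was called higher without CTR replicate 1 (edgeR adjusted p = 0.0036 against CTR and 0.00027 against NE). The 4 T-cell markers summed to at most 4.48 CPM in any library. The 4 plasmacytoid dendritic cell markers summed to 38.4 to 42.9 CPM in CTR, 38.3 to 47.1 in NE and 54.2 to 58.8 in TDE, where Tcf4 was called higher and Siglech lower against CTR. The 4 fibroblast markers summed to 5.06 to 5.39, 4.72 to 5.10 and 8.35 to 9.26 CPM. Dcn, at 0.127 to 0.587 CPM in CTR, 0.217 to 0.398 in NE and 3.08 to 3.49 in TDE, was called higher in both comparisons, and Pdgfrb, at 1.49 to 2.22 CPM in CTR and 3.17 to 3.82 in TDE, against CTR (edgeR adjusted p = 0.0357, and 0.197 with offsets fitted to gene length). Col1a1 and Col1a2 had negative log2 fold changes against CTR (−0.79 and −0.83, adjusted p = 0.126 and 0.200), so the higher sum came from Dcn and Pdgfrb. The part of these cell types in the class II results was not tested.

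Likeness of pattern was described by Pearson's r between a gene's log2 CPM and the mean centred log2 CPM of the 10 members over the 9 libraries, which share the deviation of CTR replicate 1. 7 members had r of 0.907 to 0.990, and H2-Oa had 0.67, Ciita 0.16 and H2-Ob −0.43. These 3 had −0.56, 0.65 and −0.83 without CTR replicate 1. Over the same 8 libraries H2-Oa and H2-Ob had r = 0.858 with each other, against 0.345 with all 9. Among 10444 other genes at 5 CPM or more the highest r belonged to Glipr2 (0.997), Gm20659 (0.996), Ercc1 (0.994), Pi16 (0.994) and Slc27a4 (0.993), and the lowest to Upf2 (−0.997), Lcorl (−0.996) and Fndc3a (−0.996). Over the 8 libraries without CTR replicate 1 the 5 had r of 0.970 to 0.982 and the 3 had −0.978 to −0.982.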

How the data were processed

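RNA of 3 CTR, 3 NE-treated and 3 TDE-treated BMDC libraries was sequenced. The authors deposited expected counts (estimated reads per gene, not normalized). The submitters' processing notes name TopHat2 2.1.1, DESeq2 1.24.0 and R 3.3.1. The counting program, genome build and strand setting are not given in the sources used here. Pooled means, gene length and annotation columns were also deposited. Only length was used of these. No value column lacked a group (0).

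Counts were rounded and tested with edgeR 4.0.16 in R 4.3.3 (filterByExpr over 3 groups, TMM, quasi-likelihood F-test over all 9 libraries, Benjamini-Hochberg adjustment, threshold 0.05). The step was tested on simulated data. log2 CPM used a prior count of 2. The standard error is the log2 fold change divided by the root of F. Alternatives were DESeq2 1.42.0, limma 3.58.1 voom with quality weights, other scalings, filters and sample sets, and, chosen after seeing the data, offsets fitted to gene length (lowess span 0.3) and removal of CTR replicate 1 with another scaling. Ratios were tested with exact permutation tests (scipy 1.17.1). All 55536 Ensembl identifiers of the table were in GENCODE vM21 (GRCm38), which supplied positions. Promoters were RefSeq windows of GRCm38.p6. A symbol that the table holds as a date was restored to March1 by its identifier.

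The genes, lists and tests were chosen with earlier results of these data known. Named pathway genes were 15 fixed ones plus, in each sub-list, the 3 largest changes called against CTR. March8 was named besides, so that every gene of surface turnover has its values. For likeness, the 5 highest and 3 lowest r were named. Some genes of the lists are counted but not reported here by name. No source states that replicate numbers pair the libraries, and the main fit used no pairing.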

Additional observations from a re-analysis of the deposited data

How the results depend on the processing

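H2-Ob rose in both comparisons and H2-Aa fell against CTR under all 20 alternatives each, and all counts of members and pathway genes for NE against CTR were 0 throughout. Member calls were 6 for TDE against CTR and 2 against NE. They became 2 and 9 when the pair of groups was fitted alone, 10 and 9 with limma-voom and sample quality weights, and 10 and 10 with offsets fitted to gene length and no CTR replicate 1. Against NE they became 1 with median-ratio factors or no filter, 7 with offsets fitted to gene length and 10 with library totals and no CTR replicate 1. Leaving out 1 library gave 2 to 9 members against CTR and 1 to 9 against NE.

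Over all genes, the 2541 calls for TDE against CTR and 2095 against NE became 1152 and 6072 for the pair alone and 7886 and 8311 with voom, where NE against CTR had 18. They became 5420, 6325 and 3 with library totals and no CTR replicate 1, and 6557, 7504 and 13 with gene-length offsets and no CTR replicate 1. Against NE they were 3173 with gene-length offsets, and DESeq2 gave 3 for NE against CTR. Leaving out 1 library gave 1103 to 5263, 970 to 6223 and 0 to 3.

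Pathway calls, 8 against CTR and 5 against NE, became 13 and 8 with DESeq2, 4 and 20 for the pair alone, 22 and 24 with voom, 13 and 10 with gene-length offsets, 17 and 20 with library totals and no CTR replicate 1, and 23 and 22 with gene-length offsets and no CTR replicate 1. Leaving out 1 library gave 4 to 17 and 3 to 19.

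With the replicate number as a block, members called were 2 against CTR and 1 against NE, all genes 1285 and 1175, and pathway genes 5 against CTR. Neither the labels nor the study's methods state a pairing by number. Same-numbered residuals correlated at −0.0348, −0.0562 and 0.0723 for TDE and CTR and at 0.0267, −0.0392 and −0.0712 for TDE and NE. For NE and CTR they correlated at −0.370, 0.185 and −0.585. Of the 6 libraries of each comparison, in that order, 2, 1 and 0 correlated best with their own number. With 3 libraries per group, and CTR replicate 1 apart from the rest, these values cannot exclude a pairing.

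The log2 fold change of H2-Oa against CTR turned positive with voom (0.46), gene-length offsets (0.24), library totals and no CTR replicate 1 (0.44) and gene-length offsets and no CTR replicate 1 (0.57), and ranged from −0.68 to 0.52 with 1 library left out. That of Ciita for NE against CTR was −0.15 with gene-length offsets, −0.16 with library totals and no CTR replicate 1, −0.15 with gene-length offsets and no CTR replicate 1, and −0.14 to 0.20 with 1 library left out. The log2 ratio of H2-O to H2-DM for TDE against CTR was 1.31 per kilobase. Other ratios changed sign with 1 library left out. For H2-Ab1 to H2-Aa the range was −0.11 to 0.19 in TDE against CTR and −0.28 to 0.0247 in NE against CTR, and for H2-Eb1 to H2-Aa −0.0928 to 0.25 and −0.27 to 0.0783. In NE against CTR it was −0.40 to 0.0258 for Cd74 to the chains and −0.0436 to 0.28 for the H2-DM beta genes to H2-DMa. Ciita to the chains ranged from −0.0708 to 0.87 in TDE against CTR, −0.34 to 0.14 in TDE against NE and −0.0465 to 0.90 in NE against CTR. The cause of these changes was not tested. At these depths genes near 3 reads per library, such as Il10 in CTR and NE, allow no fold.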
